A study of Bos taurus with 6 samples.

Results

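RAB small GTPases are the largest branch of the RAS superfamily, and each member marks a particular membrane of the secretory or endocytic route. Bound to GTP, a RAB protein recruits effectors such as tethers and motor proteins that move, dock or fuse a vesicle, and hydrolysis to GDP releases them. In the blastocyst these routes carry junction proteins, receptors and channels to the surface of the trophectoderm, the epithelium that encloses the blastocoel, and return them from endosomes. The genes described here are the rows of the count table whose symbol is RAB followed by a number and at most a letter and a digit. The rule found 45 genes among 12826 rows, and all 45 passed the filter on low counts. The bovine gene table of RefSeq (ARS-UCD2.0) lists 59 such symbols, of which 14 had no row and are not analysed here, among them RAB1B, RAB3A, RAB27B, RAB32 and RAB38.

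RNA-seq was made from pools of Bos taurus blastocysts at day 7, produced in vitro from slaughterhouse material. The 3 BHB libraries came from embryos treated with beta-hydroxybutyrate, the main circulating ketone body, and the 3 control libraries from embryos without it. Its dose, the length of exposure, the embryos per pool and the breed were not given in the sources used here. No source says whether the pools were separate embryo batches, so each p-value reflects variation among 6 libraries that may be technical. Levels are CPM (counts scaled to a common library size after TMM normalization). Transcript lengths were not used here, so levels are compared between libraries and not between genes. In pooled embryos, fewer cells of a type and less RNA per cell cannot be told apart.

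The libraries held 6440732 to 7348949 counts with BHB and 7925889 to 8176648 counts in controls, of which the 45 genes took 0.424% to 0.441% with BHB and 0.440% to 0.455% in controls. Of 15 blastocyst markers, 13 had a row (SOX2 and SOX17 did not). They summed to 8870 to 13956 CPM with BHB and 11113 to 17661 CPM in controls. They include the trophectoderm keratins KRT8 and KRT18, which make up most of each sum, and the inner cell mass factors POU5F1 and NANOG. The groups did not overlap in 3 of the 13 (NANOG and GATA4 lower, KLF17 higher with BHB), against 998 of 12732 tested genes. NANOG had 30.7 to 51.2 CPM with BHB and 60.7 to 73.4 CPM in controls. KLF17 had 24.2 to 34.2 CPM with BHB and 15.4 to 22.3 CPM in controls. By edgeR's test below, 0 of the 13 were called. With the library pairs defined at the end of this paragraph as a block, DESeq2 called 1 (0.359% of all genes with an adjusted p). Blocked edgeR called 0, with 5 of 13 at an unadjusted p under 0.05 (8.2% of all tested genes). Between pairs, edgeR called 3 of the 13 (4.12% of all tested genes). Of 13 cumulus and granulosa cell markers, 3 had a row (CYP19A1, FSHR and STAR), with a summed level of 28.2 to 35.3 CPM with BHB and 29.6 to 37.5 CPM in controls. Of 8 sperm markers 3 had a row, summing to 5.52 to 9.63 CPM with BHB and 4.41 to 10.1 CPM in controls, and none of 7 leukocyte markers had one. The smallest row total of the count table was 38 counts, so a marker or RAB gene without a row may still have had reads. The model that returns the p-values of the authors' deposited table joins each BHB library to 1 control library (BHB 1 with control 1, and so on). These are called pairs 1 to 3 below. The labels do not state them.

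No RAB gene passed the test between BHB and control blastocysts. By edgeR's quasi-likelihood test with Benjamini-Hochberg adjustment over 12732 genes, 0 of 45 members were called, against 0% of all tested genes, with adjusted p from 0.999 to 1.000 over the members. At an unadjusted p under 0.05 there were 0 members, against 2.73% of all tested genes. With the pair as a replicate block, edgeR again called 0 members (0% of all tested genes) and DESeq2 called 0 of 42 with an adjusted p (0.359% of all genes with one). The blocked edgeR test had 3 members at an unadjusted p under 0.05, which are RAB1A, RAB25 and RAB7B and make up 6.67% of the family, against 8.2% of all tested genes.

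Fold changes over the family were small and lay on both sides of 0. The median log2 fold change of BHB over control was -0.02 over the 45 members and -0.005 over all tested genes, and the median size without its sign was 0.18 and 0.16. The members ran from -0.67 for RAB3C to 0.45 for RAB43. The value was positive in 20 members (44.4%), against 49.1% of all tested genes. Scaling by library size alone moved the median of all genes by 0.07 and made 29 members positive (64.4%, against 60.7% of all tested genes), so the count of positive members depends on the scaling. Counts by route and by list below use TMM, DESeq2's size factors gave the same counts, and those under library size alone are given beside them where the larger side changes.

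The BHB libraries lay above all 3 control libraries in 4 members, RAB2A, RAB7B, RAB33B and RAB43, which is 8.89% of the family, against 4.06% of all tested genes. They lay below all 3 controls in 0 members, against 3.78% of all tested genes. Within pairs, 8 members were higher with BHB in 3 of 3 pairs (17.8%, against 14.5% of all tested genes) and 5 were lower in 3 of 3 (11.1%, against 15.7%). The 8 are RAB2A, RAB4B, RAB7B, RAB8B, RAB20, RAB21, RAB33B and RAB43. The 5 are RAB1A, RAB3D, RAB5A, RAB10 and RAB25.

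**Figure D1:**
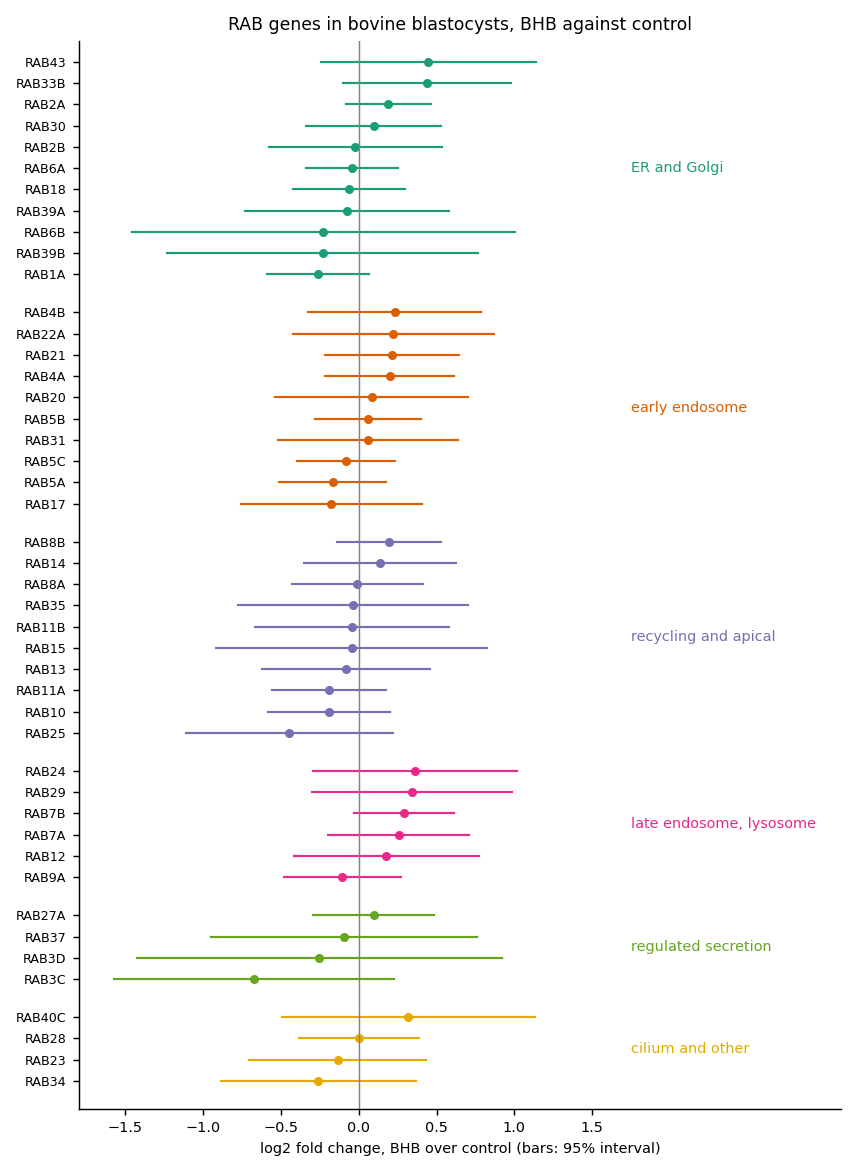
Log2 fold change of BHB over control for the 45 RAB genes (points), grouped by the route each is best known for. Bars are the 95% interval of edgeR's fit without the replicate block. Each interval includes 0, and the points run from -0.67 (RAB3C) to 0.45 (RAB43).

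Among the 11 members of the route from the endoplasmic reticulum through the Golgi, 4 had a positive and 7 a negative fold change, with 0 called and a median of -0.05 (8 positive with library size alone). RAB1A, which drives transport from the endoplasmic reticulum to the Golgi, had 693, 623 and 546 CPM in BHB libraries 1 to 3, against 782, 808 and 645 CPM in control libraries 1 to 3. BHB library 1 lay above control library 3, so the groups overlapped, but each BHB library was below the control of its own pair. Its log2 fold change was -0.26 (SE 0.15, 95% interval -0.59 to 0.06), with adjusted p = 0.999 without the block and 0.533 with it in edgeR. RefSeq places 18 members over another annotated gene. For 3 of them that gene is in the count table, RAB1A with CEP68, RAB24 with NSD1 and RAB27A with LOC132342125. The other gene is a pseudogene in RAB6A, RAB7B, RAB13, RAB30 and RAB33B. How shared reads were counted is not known here.

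RAB2A, which acts between the Golgi and the endoplasmic reticulum and in fusion of vesicles with lysosomes, had 148, 145 and 151 CPM with BHB, against 133, 121 and 136 CPM in controls. The groups did not overlap, and the BHB libraries were close together. BHB over control was 0.19 on the log2 scale (SE 0.12, 95% interval -0.09 to 0.46). RAB33B, a Golgi member that also binds the autophagy protein ATG16L1, had 12.8, 10.8 and 16.2 CPM with BHB, against 9.62, 9.55 and 10.2 CPM in controls. BHB libraries lay above controls, and BHB library 2 did so by less than 1 CPM. RAB43, which acts in traffic between the endoplasmic reticulum and the Golgi, had 7.41, 6.79 and 8.02 CPM with BHB, against 6.68, 3.85 and 5.75 CPM in controls. These values rest on 49 to 55 counts with BHB and 29 to 50 counts in controls. On the log2 scale RAB33B was at 0.44 (SE 0.24) and RAB43 at 0.45 (SE 0.31), and neither passed (adjusted p = 0.999 in edgeR).

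The groups overlapped in the other 7 members of this route. RAB6A, a Golgi member in retrograde and secretory transport, was at 294 ± 17.8 CPM with BHB and 303 ± 34.9 CPM in controls (SD, n = 3 each). RAB18, which acts at lipid droplets and the endoplasmic reticulum, was at 135 ± 15.8 CPM with BHB and 141 ± 23.4 CPM in controls. RAB2B, the paralog of RAB2A, and the Golgi member RAB30 had log2 fold changes of -0.02 and 0.09, and RAB39A had -0.08. RAB39B (-0.23, SE 0.44) and RAB6B (-0.23, SE 0.55) had the fewest reads of the group, with 6 to 20 counts per library for RAB6B.

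Of the 10 members placed at the early endosome, 7 had a positive and 3 a negative fold change, with 0 called and a median of 0.07. The RAB5 genes, which control fusion of incoming vesicles with early endosomes, were all present. RAB5A had 62.1, 70.1 and 55.9 CPM with BHB, against 62.5, 72.1 and 76.4 CPM in controls. Pairs 1 and 2 differed by -0.01 and -0.04 on the log2 scale and pair 3 by -0.45, so the log2 fold change of -0.17 (SE 0.15) came mostly from pair 3. RAB5B had 149.7, 128 and 146 CPM with BHB, against 159.8, 119 and 129 CPM in controls. RAB5C had 87.8, 81.4 and 74.7 CPM with BHB, against 80.3, 95.2 and 83.0 CPM in controls. The groups overlapped in all 3, and the intervals were -0.51 to 0.18 for RAB5A, -0.28 to 0.40 for RAB5B and -0.40 to 0.23 for RAB5C.

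RAB4A, which directs fast recycling from early endosomes, had 119.9, 87.9 and 105 CPM with BHB, against 94.4, 71.5 and 106 CPM in controls. Its pair 2 libraries were the lowest of each group. Its log2 fold change was 0.20 (SE 0.18), beside that of its paralog RAB4B (0.23, SE 0.25). RAB21, an early endosome member in integrin traffic, was at 21.4 ± 1.97 CPM with BHB and 18.4 ± 2.20 CPM in controls. RAB22A and RAB31, related members that act between the early endosome and the Golgi or recycling compartment, had log2 fold changes of 0.22 (SE 0.29) and 0.06 (SE 0.26). The endosome and phagosome member RAB20 (0.08) and the epithelial transcytosis gene RAB17 (-0.18) completed the group.

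The recycling and apical group is mixed and also holds the basolateral sorting gene RAB10, the tight junction gene RAB13 and general recycling members. Of its 10 members 2 had a positive and 8 a negative fold change, with 0 called and a median of -0.04 (6 positive with library size alone). These counts are therefore not counts for apical transport. RAB25 is an epithelial member of the RAB11 subfamily that acts in apical recycling. It had 56.7, 69.0 and 40.9 CPM in BHB libraries 1 to 3, against 103, 79.3 and 45.1 CPM in control libraries 1 to 3. Control library 1 stood above the rest and both libraries of pair 3 were the lowest, so the groups overlapped while each BHB library was below its paired control. The log2 fold change was -0.45 (SE 0.30, 95% interval -1.11 to 0.22, adjusted p = 0.999 in edgeR), and ran from -0.71 to -0.16 when 1 library was left out, nearest to 0 without control library 1. With the block it was -0.41, with adjusted p = 0.564 in edgeR.

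RAB11A, the main organizer of the recycling endosome, had 1258, 1352 and 1135 CPM with BHB, against 1642, 1503 and 1125 CPM in controls. Controls 1 and 2 lay above the other 4 libraries, and pair 3 differed by 0.01 on the log2 scale. The log2 fold change was -0.19 (SE 0.16, 95% interval -0.56 to 0.18). RAB11B, its close paralog, had 7.14, 5.26 and 6.86 CPM with BHB, against 6.81, 6.10 and 6.93 CPM in controls, on 38 to 59 counts per library.

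RAB10, which acts in basolateral sorting and exocytosis, had 466, 637 and 561 CPM with BHB, against 509, 734 and 659 CPM in controls. Within each pair BHB was lower (-0.13, -0.20 and -0.23 on the log2 scale), and pair 1 was the lowest in both groups. RAB14, which acts between endosomes and the Golgi, had 115, 94.7 and 105 CPM with BHB, against 91.2, 67.9 and 127 CPM in controls, and its fold change of 0.14 turned to -0.06 without control library 2. RAB13, a tight junction member, had 11.99, 15.4 and 13.7 CPM with BHB, against 17.1, 15.5 and 10.9 CPM in controls. RAB8B, an exocytic member, had 84.2, 65.8 and 69.0 CPM with BHB, against 60.9, 63.6 and 66.6 CPM in controls, with BHB library 1 standing above the other 5. Its log2 fold change was 0.20 (SE 0.15), and that of RAB8A was -0.01 (SE 0.19). RAB35, a member of fast plasma membrane recycling, was at 5.87 ± 0.53 CPM with BHB and 6.03 ± 1.85 CPM in controls.

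**Figure D2:**
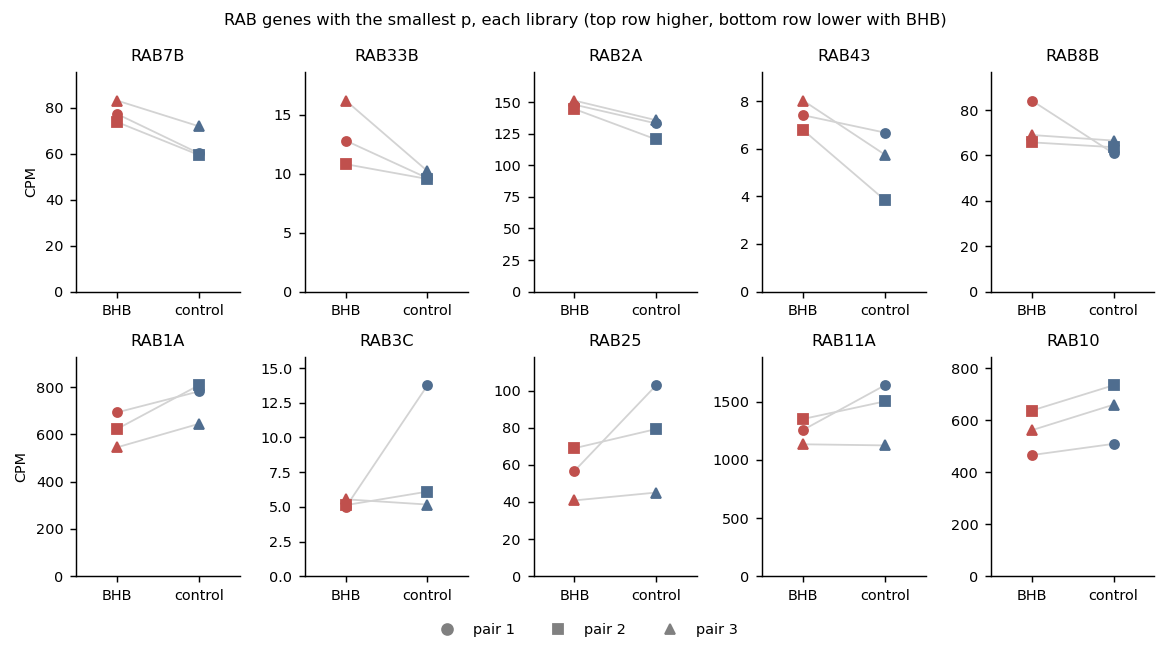
CPM in each library for the 5 RAB genes with the smallest p on the higher side (top row) and on the lower side (bottom row), with BHB at the left and control at the right of each panel and grey lines that join the libraries of a pair. BHB points lie above all controls in RAB7B, RAB33B, RAB2A and RAB43, while in RAB3C a single control library (13.8 CPM) stands apart.

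The late endosome, lysosome and autophagy group had 5 of 6 members with a positive fold change and the highest median of the 6 groups (0.27), with 0 called. RAB7B, which acts between late endosomes and the Golgi, had the smallest p of the family on either side. It had 77.2, 73.7 and 83.0 CPM in BHB libraries 1 to 3, against 60.1, 59.4 and 71.9 CPM in control libraries 1 to 3. The groups did not overlap, and the pairs differed by 0.36, 0.31 and 0.21 on the log2 scale. The log2 fold change was 0.29 (SE 0.14, 95% interval -0.03 to 0.61), with adjusted p = 0.999 in edgeR without the block and 0.575 with it.

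RAB7A, the general member for fusion of late endosomes with lysosomes, had 38.4, 46.1 and 31.7 CPM with BHB, against 32.1, 27.3 and 37.9 CPM in controls. BHB was the higher library in pairs 1 and 2 and the lower one in pair 3, and the log2 fold change was 0.26 (SE 0.20, 95% interval -0.20 to 0.71). RAB24, linked to autophagy, and RAB29, a Golgi and lysosome member, had log2 fold changes of 0.36 (SE 0.29) and 0.34 (SE 0.29). RAB12, which acts in delivery of receptors to lysosomes, was at 7.86 ± 0.29 CPM with BHB and 6.96 ± 1.12 CPM in controls. Within pairs, BHB was the lower library for RAB24 in pair 3 (-0.24 on the log2 scale), RAB29 in pair 1 (-0.06) and RAB12 in pair 2 (-0.008). RAB9A, which returns receptors from late endosomes to the Golgi, was the member with a negative value (-0.11, SE 0.17).

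Regulated secretion was represented by 4 of 8 listed members. RAB3C, a member of the vesicle exocytosis subfamily, had 4.98, 5.12 and 5.54 CPM with BHB, against 13.8, 6.10 and 5.17 CPM in controls. Control library 1 stood apart with 103 counts, where the other libraries held 37 to 46. Its log2 fold change of -0.67 (SE 0.40) was -0.11 without that library. RAB27A, which docks secretory and exosome-releasing compartments, had 31.8, 33.0 and 37.8 CPM with BHB, against 34.3, 27.6 and 34.0 CPM in controls, with a log2 fold change of 0.10 (SE 0.17). RAB37, a secretory granule member, was at 3.08 ± 0.34 CPM with BHB and 3.29 ± 1.05 CPM in controls.

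The last group, cilium and other, had 1 positive and 3 negative of 4 members, with 0 called (2 positive with library size alone). It included RAB23 (-0.14, SE 0.25), a ciliary regulator of hedgehog signalling, and RAB28 (-0.0002, SE 0.17), also ciliary. RAB28 was at 27.5 ± 0.26 CPM with BHB and 27.5 ± 3.57 CPM in controls, with an interval of -0.39 to 0.39. RAB40C, which carries a SOCS box and joins a ubiquitin ligase, was higher with BHB in pairs 1 and 2 (0.75 and 1.00 on the log2 scale) and lower in pair 3 (-0.73).

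A few RAB genes passed a test between the pairs of libraries, and which of them passed depended on the settings. Between pairs, with treatment kept as a term, edgeR called 3 of 45 members by the quasi-likelihood test, RAB15, RAB34 and RAB3D (6.67%, against 4.12% of all tested genes). RAB15, an endosomal recycling member, had 111, 49.2 and 42.9 CPM in BHB libraries 1 to 3, against 99.6, 43.4 and 66.6 CPM in control libraries 1 to 3. Both libraries of pair 1 stood above the other 4 (adjusted p = 0.0195 between pairs), and BHB was higher in pairs 1 and 2 and lower in pair 3. BHB over control was -0.05 on the log2 scale (SE 0.39).

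RAB3D, a member of secretory granule release, had 9.97, 2.49 and 7.00 CPM with BHB, against 11.6, 3.98 and 7.63 CPM in controls. Pair 2 was the lowest in both groups, on 18 counts with BHB and 30 counts in its control (adjusted p = 0.0447 between pairs in edgeR). RAB34, which acts in lysosome positioning and early steps of cilium formation, had 56.4, 59.0 and 32.2 CPM with BHB, against 77.5, 58.2 and 41.3 CPM in controls. Pair 3 was the lowest in both groups (adjusted p = 0.0462 between pairs in edgeR). RAB25 (adjusted p = 0.0582), RAB10 (0.0754) and RAB4A (0.191) had the next smallest values and did not pass. Scaling by library size alone kept 1 call, RAB15, and without pair 1 the test between pairs 2 and 3 called 0 of 45. Without pair 2 the calls were RAB15, RAB25 and RAB34, and without pair 3 they were RAB15 and RAB3D. DESeq2's likelihood ratio test called 4 members, RAB10, RAB15, RAB25 and RAB34. Over all tested genes, the calls were 376 of 12732 with library size alone and 63 of 12665 without pair 1. They were 737 of 12719 without pair 2, 514 of 12572 without pair 3 and 663 of 12732 with DESeq2's test.

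Keratin levels followed a similar order of libraries to RAB25 and RAB34. KRT8 had 9804, 8217 and 5706 CPM with BHB, against 12283, 11329 and 7369 CPM in controls. KRT18 had 3150, 2970 and 2078 CPM with BHB, against 4391, 3649 and 2682 CPM in controls. In RAB25 and both keratins, controls 1 and 2 were the highest libraries, BHB libraries 1 and 2 came next, and control 3 and BHB 3 were the lowest. RAB34 shared the first place of control 1 and the last places of pair 3. The other trophectoderm markers with a row, CDX2, GATA2, GATA3, TFAP2C and TEAD4, did not share the keratin order. TFAP2C had 269, 268 and 297 CPM with BHB, against 195, 172 and 277 CPM in controls. For GATA3 the values were 125, 140 and 142 CPM with BHB, against 168, 121 and 123 CPM in controls. In CDX2, GATA2 and TEAD4 pair 2 was the lowest in both groups. The part of trophectoderm content in the values of RAB25 and RAB34 was not tested.

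**Figure D3:**
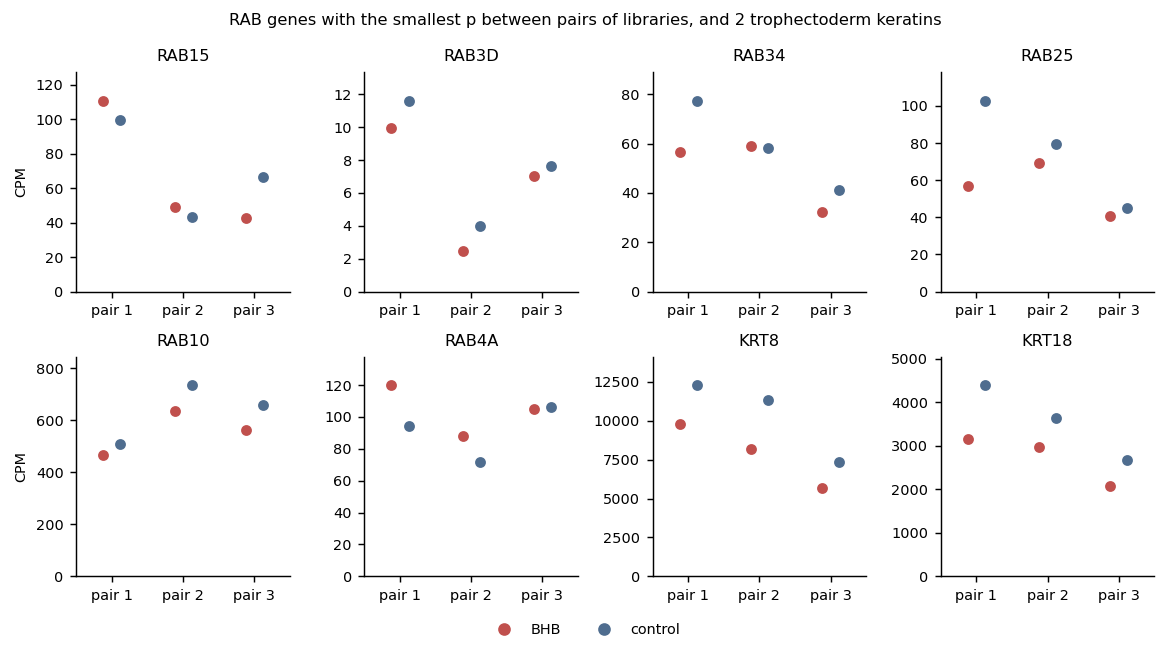
CPM by pair of libraries for the 6 RAB genes with the smallest p between pairs and for the trophectoderm keratins KRT8 and KRT18, with BHB in red at the left and control in blue at the right of each pair. RAB15 is highest in both libraries of pair 1, RAB3D lowest in both of pair 2, and RAB25, RAB34, KRT8 and KRT18 lowest in both of pair 3.

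The authors' deposited table gave an adjusted p under 0.05 to 4 RAB genes (8.89%, against 5.04% of all genes in it). Its p-values came back from a likelihood ratio test of pair and treatment together against neither, so they do not separate BHB from the pairs. In the authors' deposited table, RAB15 had an adjusted p of 0.000145 beside a log2 fold change of BHB over control of -0.10, and RAB25 one of 0.00438 beside -0.41. RAB34 had an adjusted p of 0.0166 beside -0.27 in the authors' deposited table, and RAB10 one of 0.0228 beside -0.19. The fold changes in the authors' deposited table are control over BHB, and their signs are turned here. In the test of treatment alone with the pair as a block, the adjusted p of these genes in edgeR was 0.923 for RAB15, 0.564 for RAB25, 0.686 for RAB34 and 0.644 for RAB10.

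Genes for proteins that load, switch and read RABs were listed by function. Of 208 such genes in 7 lists, 190 had a row, and edgeR and blocked DESeq2 called 0 of them for BHB, with 88 positive and 102 negative and a median of -0.02. With library size alone 113 were positive and 77 negative, with a median of 0.05, so the balance depends on the scaling. At an unadjusted p under 0.05 there were 2 without the block (1.05%) and 7 with it (3.68%), shares below the 2.73% and 8.2% of all tested genes. The 8 genes that attach the lipid anchor and hold RABs in the cytosol had a median of -0.09, 3 of them positive (4 with library size alone). GDI2, a GDP dissociation inhibitor that extracts RABs from membranes, was at 778 ± 52.8 CPM with BHB and 855 ± 98.2 CPM in controls. CHML, an escort protein for prenylation, was at 40.8 ± 12.1 CPM with BHB and 50.6 ± 7.91 CPM in controls, and RABAC1, which binds prenylated RABs, at 69.1 ± 19.04 CPM with BHB and 81.7 ± 5.51 CPM in controls.

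Of 48 tested exchange factors, which load GTP, 20 were positive and 28 negative (28 positive with library size alone). DENND2D had 90.0, 81.6 and 79.8 CPM with BHB, against 128, 104 and 85.5 CPM in controls, and RIC1, part of an exchange factor for RAB6, had 36.6, 37.8 and 44.5 CPM with BHB, against 30.6, 29.3 and 34.8 CPM in controls. Groups overlapped in DENND2D and not in RIC1, and both had adjusted p = 0.999 in edgeR. Of 37 tested GTPase activating proteins, which switch RABs off, 24 were positive and 13 negative, with a median of 0.05. SGSM3 had the largest fold change of the 190 genes, with 5.12, 3.32 and 4.23 CPM with BHB, against 0.935, 1.86 and 2.58 CPM in controls (log2 fold change 1.22, SE 0.45, adjusted p = 0.999 in edgeR). TBC1D30 was at 6.37 ± 1.22 CPM with BHB and 4.05 ± 1.58 CPM in controls.

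Effectors, the proteins that bind a GTP-loaded RAB, also had 0 calls. The early endosome, CORVET and HOPS list had 10 positive and 17 negative of 27, with a median of -0.07. In it VPS41, a HOPS subunit, was at 77.8 ± 6.78 CPM with BHB and 95.9 ± 27.6 CPM in controls, and VPS16, a core subunit of both tethers, at 29.7 ± 4.88 CPM with BHB and 37.3 ± 8.30 CPM in controls. The list of recycling, exocyst and MICAL-like effectors had 14 positive and 20 negative of 34, with a median of -0.09. RILPL2, a ciliary effector, had 2.69, 1.94 and 1.46 CPM with BHB, against 4.14, 3.58 and 4.34 CPM in controls, and OPTN, the RAB8 effector optineurin, had 308, 319 and 386 CPM with BHB, against 281, 286 and 270.2 CPM in controls. The groups did not overlap in either, and neither passed (adjusted p = 0.999 in edgeR). Golgi tethers had a median of -0.01 over 27 genes (13 positive and 14 negative), and of 0.07 with library size alone (20 positive and 7 negative), with GOLGB1 at -0.18 (SE 0.14) and GOLGA1 at 0.25 (SE 0.22). Secretion effectors had a median of -0.03 over 9 genes (4 positive and 5 negative), and of 0.05 with library size alone (5 positive and 4 negative), with RIMS1 at 0.68 (SE 0.50) and SYTL2 at 0.58 (SE 0.53).

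**Figure D4:**
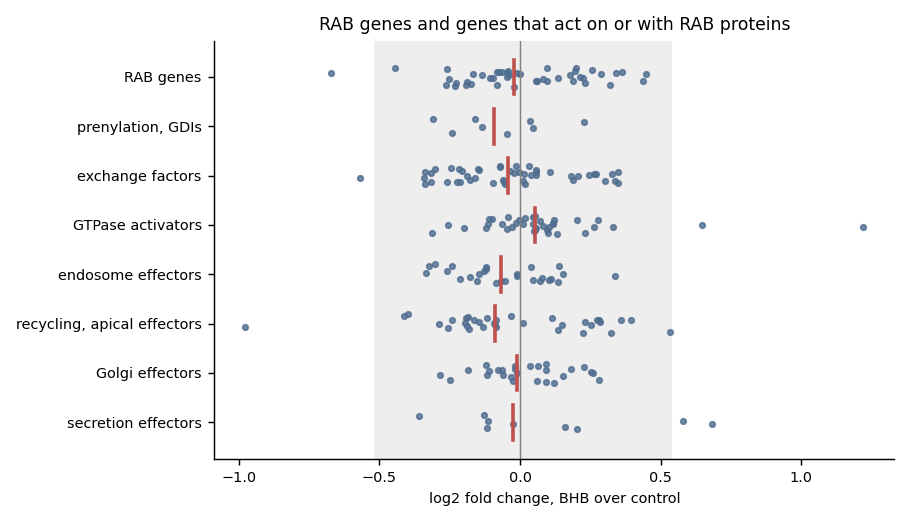
Log2 fold change of BHB over control for the 45 RAB genes and the 190 genes that load, switch or bind RAB proteins (points), with the median of each list (red bars) and the range from the 5th to the 95th percentile of all tested genes (grey, -0.52 to 0.54). Medians run from -0.09 to 0.05, and SGSM3 at 1.22 and RILPL2 at -0.98 lie farthest out.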

How the data were processed

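The deposited table of whole-number counts per gene for 6 libraries was used. Per the submitters' processing notes its makers ran STAR, featureCounts and DESeq2, without versions. Genome build, strand setting and the handling of multi-mapped reads were not given in the sources used here, so levels of close paralogs and of genes with pseudogenes are uncertain. From the authors' deposited comparison, the log2 fold change and the p-values were read. Per the labels' protocols, libraries were stranded and poly(A)-selected.

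Counts were tested with edgeR 4.0.16 in R 4.3.3 (TMM, filterByExpr, quasi-likelihood F test, Benjamini-Hochberg at 0.05 over 12732 of 12826 genes, no covariate), after tests on simulated data. Standard errors are the fold change over the root of F, and 95% intervals use that fit's degrees of freedom. DESeq2 1.42.0 and limma 3.58.1 (voom), other scalings and filters, each library left out and the pair as a replicate block were alternatives. The pairing comes from refits of the authors' deposited p-values, matched within 1e-06 in 99.98% of genes and in at most 0.398% under 5 other pairings. Deviations from group means correlated at 0.46, 0.32 and 0.33 within pairs. Members and lists were chosen with earlier results of these data known. Values per library are given for the 5 smallest p in each direction, the 6 smallest between pairs and a fixed set of well-known members, and 2 genes per list with none called. The keratins, GDI2 and the examples beyond these sets were added after their values were seen. No sequences are shown.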

Additional observations from a re-analysis of the deposited data

How the results depend on the processing

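No member and none of the 190 genes that act on RABs was called between BHB and control in any of the 14 alternatives, nor with a pair left out, which was chosen after seeing the data. At an unadjusted p under 0.05, blocked edgeR had 8 of 45 members without pair 3 (1191 of 12572 tested genes). It had 2 without pair 1 (936 of 12665) and 2 without pair 2 (715 of 12719). Unblocked edgeR had 5 members without control library 3 (890 of 12786) and 0 without any other library. Over all genes, DESeq2's Wald test called 6 genes and 36 with the replicate block, edgeR called 0 to 1 when a library was left out, and the blocked edgeR test called 4, 16 and 4 without pair 1, 2 and 3. Between pairs, 1 member was called with library size alone (376 of 12732 tested genes) and 0 without pair 1 (63 of 12665 tested genes). The cause was not tested. The filter of at least 1 CPM in 3 libraries removed no gene. The summed level of the members was 4257 ± 237 CPM with BHB and 4610 ± 332 CPM in controls (SD, n = 3 each). The difference was -353 CPM (BHB minus control), and -142 CPM with library size alone. The largest differences in mean CPM were in the abundant RAB11A (1248 with BHB, 1423 in controls), RAB1A (621 and 745) and RAB10 (554 and 634). Of the 45 members, 20 had a positive fold change, so the sum is not a measure of the whole family.

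The fold change kept its direction in 26 members under all 14 alternatives and turned in 19 under at least 1, of which none was called. With library size alone it became 0.0233 in RAB11B, 0.0155 in RAB15, 0.0215 in RAB6A, 0.0074 in RAB18, 0.0656 in RAB28, 0.0341 in RAB2B, 0.0438 in RAB35, 0.0022 in RAB39A and 0.0558 in RAB8A. With limma voom it became 0.0074 in RAB28 and 0.0223 in RAB35, and with the replicate block 0.0069 (edgeR) and 0.0022 (DESeq2) in RAB28. Leaving out 1 library, which keeps its partner and so mixes pair with treatment, gave ranges of -0.13 to 0.084 in RAB11B, -0.25 to 0.056 in RAB13, -0.057 to 0.40 in RAB14, -0.60 to 0.30 in RAB15, -0.15 to 0.080 in RAB18, -0.31 to 0.14 in RAB23, -0.092 to 0.092 in RAB28, -0.21 to 0.089 in RAB2B, -0.016 to 0.22 in RAB30, -0.21 to 0.21 in RAB31, -0.27 to 0.17 in RAB35, -0.22 to 0.20 in RAB37, -0.25 to 0.24 in RAB39A, -0.50 to 0.083 in RAB39B, -0.71 to 0.16 in RAB3D, -0.028 to 0.19 in RAB5B, -0.11 to 0.049 in RAB6A, -0.58 to 0.029 in RAB6B and -0.15 to 0.15 in RAB8A. With 3 libraries a group and no block, the narrowest 95% interval of the 45 fold changes was -0.09 to 0.46 in RAB2A. The widest was -1.46 to 1.00 in RAB6B. In that fit, smaller differences could not be told from none. With the replicate block in edgeR, the SE fell from 0.17 to 0.09 in RAB10 and from 0.15 to 0.09 in RAB1A. It rose from 0.547 to 0.565 in RAB6B.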

Other observations

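Relatives of the family outside the naming rule were also measured. Of 9 listed RAB-like genes 6 had a row, and 0 passed edgeR's test (2 positive and 4 negative, or 3 positive with library size alone). IFT22, a small GTPase-like subunit of intraflagellar transport, was at 21.7 ± 5.03 CPM with BHB and 17.6 ± 0.47 CPM in controls (log2 fold change 0.30, SE 0.22; SD over n = 3 each). RASEF, which joins a RAB domain to calcium-binding motifs, was at 14.6 ± 2.17 CPM with BHB and 18.1 ± 5.01 CPM in controls (-0.30, SE 0.25).

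Of the 190 genes that act on RABs, 4 were called between pairs (2.11%, against 4.12% of all tested genes): RIN2, SH3BP5, TBC1D4 and RUFY3. SH3BP5, an exchange factor for RAB11, had 34.4, 15.1 and 17.4 CPM in BHB libraries 1 to 3, against 36.1, 13.8 and 21.6 CPM in control libraries 1 to 3. Pair 1 stood above the others in both groups, as in RAB15. TBC1D4, a GTPase activating protein for RAB10 among others, had 87.6, 152 and 134 CPM with BHB, against 66.7, 133 and 142 CPM in controls. Pair 1 was the lowest in both groups, as in RAB10. These 4 were chosen after their values were seen.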
